A study of Mus musculus with 7 samples.

Results

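Vip, Hand2, Tlx2, Slc18a3, Chrna3, Htr3a, Nos1, Sncg and Nefl are genes of parasympathetic and other autonomic neurons. They are 9 of the 50600 genes counted in 7 RNA sequencing libraries of mouse olfactory epithelium taken at postnatal day 7. The 9 genes were chosen by their level in the single wild-type library, which differed from that in the 6 other libraries, so every value of wild type against the rest is a description with no test. The wild-type mouse was Amigo1+/+ (WT, 1 library). The 3 knockout libraries came from Amigo1-/- mice (KO). The 3 cassette libraries came from Amigo1neo/neo mice (neo), an allele named for a neomycin resistance cassette. KO and neo share a near absence of reads from Amigo1, a cell adhesion gene, and the labels name no treatment. The whole epithelium was dissected, with no sorting of cells.

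Parasympathetic fibres reach the nasal lining from the pterygopalatine ganglion, a cluster of neurons behind the nose that are specified by transcription factors such as Phox2a and Hand2. These neurons release acetylcholine, the vasodilator peptide VIP and nitric oxide onto nasal glands and vessels. They receive their input through nicotinic receptors that contain the subunit encoded by Chrna3. Olfactory sensory neurons are a separate lineage that does not use VIP as a transmitter.

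Gene counts totalled 14879415 to 21343058 per library, and levels are given as CPM, the usual count scaled to library size, with TMM factors over the 7 libraries. Amigo1 stood at 34.2 CPM in WT and at 0 to 0.884 CPM in the 6 others. Omp, the marker of mature olfactory neurons, stood at 964 CPM in WT and 783 to 1162 CPM in the others, so the labelled tissue was present in every library. WT and neo replicate 1 were high in Xist (643 and 1144 CPM), which is transcribed from the inactive X chromosome in females, and the other 5 libraries had at most 4.18 CPM. The names of the WT and KO libraries share a code and a date-like number that differ in neo, and the labels do not explain either. Since WT is 1 library, its genotype, its dissection and its animal cannot be told apart. In whole tissue, fewer cells of a type and less RNA per cell also cannot be told apart.

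Vip encodes the precursor of vasoactive intestinal peptide. It lies on GRCm38 chromosome 10 at 5639218 to 5647617 on the plus strand. Hand2, a basic helix-loop-helix factor of autonomic neuron differentiation, lies on chromosome 8 at 57320983 to 57324633 on the plus strand. Slc18a3, the vesicular acetylcholine transporter gene, lies on chromosome 14 at 32462438 to 32464850 on the minus strand, inside the Chat gene of the same strand. These genes had the sharpest contrast between WT and the others, and the 250 bases before the RefSeq start of each (GRCm38.p6) are shown, at chr10:5638968-5639217, chr8:57320733-57320982 and chr14:32464851-32465100. Capitals mark the core CGTCA of the cyclic AMP response element and the Hand-type E-box CATCTG on either strand.
Vip: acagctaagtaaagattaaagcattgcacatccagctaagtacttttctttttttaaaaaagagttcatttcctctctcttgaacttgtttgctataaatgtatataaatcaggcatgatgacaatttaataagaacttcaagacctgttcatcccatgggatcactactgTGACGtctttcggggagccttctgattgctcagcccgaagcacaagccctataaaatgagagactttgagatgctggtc
Hand2: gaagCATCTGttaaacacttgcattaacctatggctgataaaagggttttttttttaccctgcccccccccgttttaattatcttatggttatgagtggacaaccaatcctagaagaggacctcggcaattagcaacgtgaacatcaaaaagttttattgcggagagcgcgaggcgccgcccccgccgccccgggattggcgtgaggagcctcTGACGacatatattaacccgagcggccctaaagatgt
Slc18a3: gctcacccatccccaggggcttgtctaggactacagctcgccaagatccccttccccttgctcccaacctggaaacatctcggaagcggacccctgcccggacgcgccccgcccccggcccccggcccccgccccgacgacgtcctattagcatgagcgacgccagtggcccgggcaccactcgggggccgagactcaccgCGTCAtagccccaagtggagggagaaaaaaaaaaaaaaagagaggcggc

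The core CGTCA was found in 4 of the 6 described genes that have a RefSeq promoter entry (Vip, Hand2, Slc18a3 and Nos1), and in 17.8% of all 32851 such windows. The match in Vip began 79 bases before the start, that in Hand2 37 bases before and that in Slc18a3 49 bases before. The E-box CATCTG was found in Hand2 and Sncg, against 14.4% of all windows. The RefSeq start of Nos1 lies inside the gene as GENCODE draws it. These matches describe letters only, and the motifs do not overlap each other in these windows.

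Among the transmitter genes, Vip had 312 counts in WT, or 14.3 CPM. KO replicates 1 to 3 had 0, 0.0536 and 0.166 CPM, and neo replicates 1 to 3 had 0.0426, 0 and 0.731 CPM. Every KO and neo library had at most 3 counts, except neo replicate 3 with 11. WT stood 19.6-fold above that library, the highest of the 6. Against all 6 pooled (16 counts) the ratio was 97.2 (95% counting interval 58.9 to 172), and without neo replicate 3 it was 268. These intervals cover counting error only.

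Nos1, the neuronal nitric oxide synthase gene (chromosome 5, 117781032 to 117958840, plus strand), stood at 8.41 CPM in WT. It had 3.12, 3.59 and 2.65 CPM in KO and 3.66, 4.06 and 2.53 CPM in neo. The 6 libraries overlapped one another and WT lay 2.07-fold above the highest. Slc18a3 had 16 counts in WT, or 0.736 CPM, and 0 counts in all 6 others. WT was therefore at least 3.69-fold higher, where a 0 is taken as 3 counts in each library. Chat, its cholinergic partner in the same locus, had 4 counts in WT and 0 to 2 counts in the others, too few to compare at this depth.

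Both transcription factors were seen almost only in WT. Hand2 had 39 counts in WT (1.79 CPM) and 0 counts in each of the 6 others, at least 8.99-fold lower on the same floor. An annotated transcript on the opposite strand, Hand2os1, overlaps it and was not analysed here, and reads were counted by strand, going by the table's name. Tlx2, a homeobox gene of autonomic and enteric neurons (chromosome 6, 83068324 to 83070293, minus strand), had 15 counts in WT (0.690 CPM), 1 count each in KO replicate 2 and neo replicate 2, and 0 in the other libraries. Its pooled ratio was 37.4 (95% counting interval 8.69 to 337), and leaving out KO replicate 2 gave 61.9, leaving out neo replicate 2 gave 63.2.

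The receptor genes were present in every library and higher in WT. Chrna3, the ligand-binding nicotinic subunit of ganglia (chromosome 9, 55010111 to 55026562, minus strand), had a WT level of 2.99 CPM. It was at 0.551, 0.964 and 0.994 CPM in KO and at 0.596, 0.598 and 1.06 CPM in neo. KO and neo overlapped, and WT was 2.81-fold above the highest of them. Htr3a, which encodes the serotonin-gated channel subunit A (chromosome 9, 48899213 to 48911099, minus strand), had a WT level of 6.16 CPM. KO libraries had 1.59, 1.45 and 1.44 CPM and neo libraries 2.09, 2.09 and 2.13 CPM. All neo values lay above all KO values, and WT was 2.90-fold above the highest.

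The cytoskeletal and axonal genes had the smallest CPM ratios of WT to the highest of the 6, while by the mean of the 6 Nos1 (2.57) was below Sncg (2.65). Sncg, encoding gamma-synuclein of peripheral neurons (chromosome 14, 34370274 to 34374789, minus strand), had a WT level of 3.68 CPM. It was at 1.102, 1.02 and 1.88 CPM in KO and at 1.49, 1.43 and 1.40 CPM in neo. KO replicate 3 was the highest of the 6 and WT stood 1.96-fold above it. Nefl, encoding the neurofilament light chain (chromosome 14, 68083863 to 68089095, plus strand), stood at 9.70 CPM in WT. It had 3.98, 6.38 and 5.58 CPM in KO and 3.28, 3.23 and 2.73 CPM in neo. WT was 1.52-fold above KO replicate 2, and KO lay above neo without overlap. Among the 7 genes with any count outside WT, the ratio of WT to the mean of the 6 ran from 2.31 for Nefl to 86.7 for Vip.

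**Figure D1:**
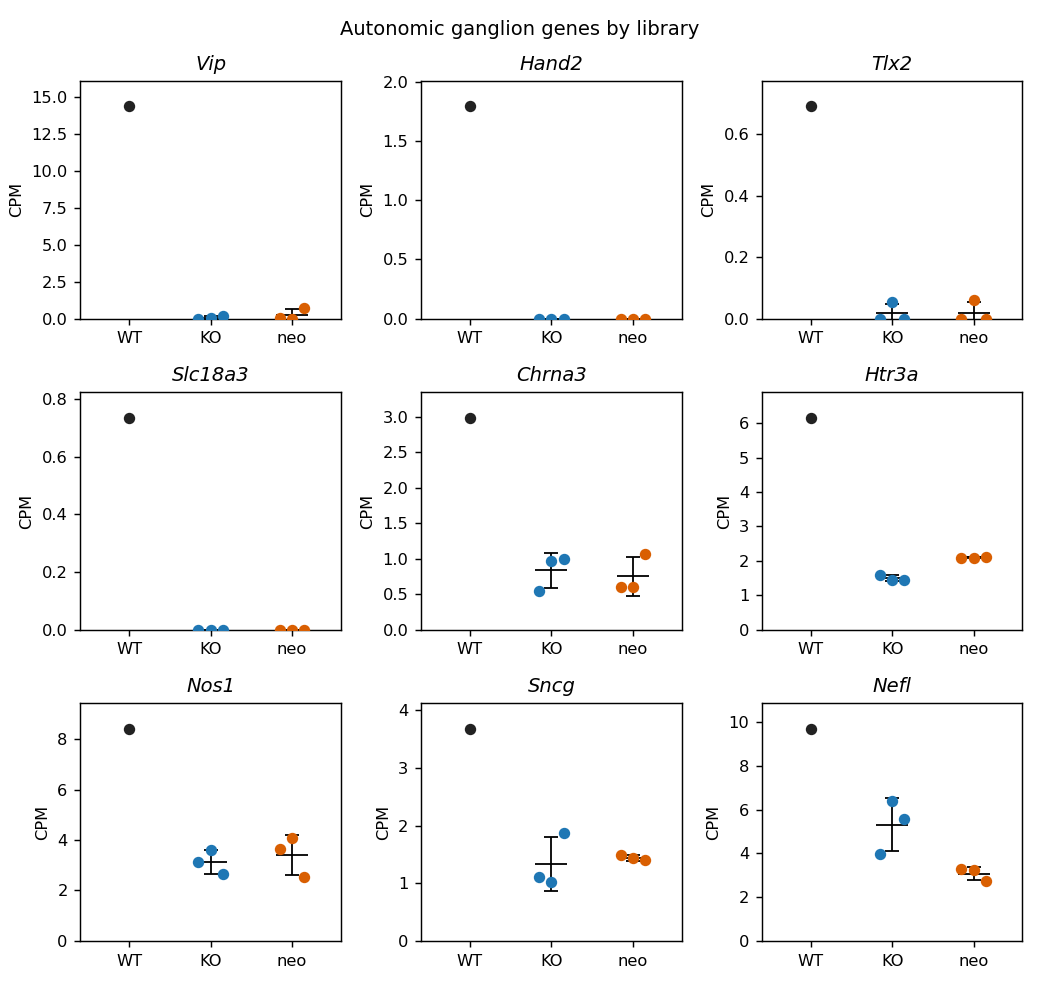
CPM of each of the 9 genes (linear axes from 0, a scale of its own in each panel) in the WT library, the 3 KO and the 3 neo libraries. Points are libraries, and the bar and whiskers are the mean ± SD of KO and of neo (n = 3 each). Each WT point stands above all 6 others, and Hand2 and Slc18a3 are at 0 in all 6.

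Summed over the 9 genes, WT had 48.5 CPM, KO libraries had 10.3, 13.5 and 12.7 CPM, and neo libraries had 11.2, 11.5 and 10.6 CPM. The 6 others thus lay close together and far from WT. Without Vip the sums were 34.2 CPM in WT and 9.84 to 13.4 CPM in the others. Set against the mean of the 6, the excess in WT was 14.2 CPM for Vip, 5.51 for Nefl, 5.14 for Nos1 and 4.36 for Htr3a. It was 2.29 CPM for Sncg, 2.19 for Chrna3, 1.79 for Hand2, 0.736 for Slc18a3 and 0.671 for Tlx2. Vip alone made up 38.4% of that excess. No single library was the highest of the 6 throughout. Among the 7 genes with any count there, neo replicate 3 was highest for 3, neo replicate 2 for 2, and KO replicates 2 and 3 for 1 each.

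TPM, the deposited level per transcript length, allows the genes to be ordered. In WT the order was Vip (14.1 TPM), Sncg (7.23), Htr3a (4.67), Nefl (4.28), Nos1 (1.24), Chrna3 (1.11), Hand2 (1.1), Tlx2 (0.780) and Slc18a3 (0.420). With 1 library no spread can be given for that order. In KO, Sncg (2.35 ± 0.970 TPM) and Nefl (2.16 ± 0.517) led and overlapped, followed by Htr3a at 1.11 ± 0.0635, Nos1 at 0.480 ± 0.108 and Chrna3 at 0.277 ± 0.0586 (SD, n = 3). In neo the order was Sncg (2.70 ± 0.626 TPM), Htr3a (1.54 ± 0.135), Nefl (1.33 ± 0.201), Nos1 (0.550 ± 0.101) and Chrna3 (0.320 ± 0.105), where Htr3a and Nefl did not differ beyond their spread. Vip, first in WT, stood below Chrna3 in both means, at 0.0700 ± 0.0819 TPM in KO and 0.270 ± 0.425 TPM in neo. Hand2, Tlx2 and Slc18a3 were listed at 0 TPM in all 6.

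By the deposited transcript TPM, 1 protein-coding transcript carried at least 82.1% of the WT level for each gene but Tlx2. For Vip it was the 7-exon transcript Vip-201, with 14.06 TPM or 99.8% of the gene in WT. For Nos1 it was the 29-exon Nos1-206 of 10123 bases, with 1.18 TPM in WT (95.2%) and 0.34 to 0.56 TPM in the 6 others, while 4 of the 7 Nos1 transcripts in the annotation were listed at 0 in 6 or more libraries and another was listed above 0 in 2 libraries. For Htr3a the whole level was assigned to Htr3a-202, at 4.67 TPM in WT and 1.04 to 1.65 TPM in the others, and Htr3a-201 was listed at 0 in all 7. Chrna3-201 held 82.1% of Chrna3 in WT. Tlx2 was divided between Tlx2-202 (0.52 TPM) and Tlx2-201 (0.26 TPM), both listed at 0 in KO and neo.

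Over all genes, 17520 reached 1 CPM in at least 1 library, among them 7 of the 9. Slc18a3 and Tlx2 stayed below that level in WT too. Among those 7, Vip, Hand2, Chrna3, Htr3a and Nos1 were at least 2-fold above every KO and neo library, as were 0.0742% of the 17520 genes (13 genes). Vip and Hand2 reached the filter through WT alone. All 7 were above the 6 others by any margin, as were 7.83% of genes, and none was 2-fold or more below all 6, as 0.0228% were. Since the genes were chosen for this contrast, nothing follows from these counts beyond their place in it. On either side of the 2-fold line lay Nos1 at 2.07 and Sncg at 1.96. The count was 2 (Vip and Hand2) at a fold of 3 and 7 at a fold of 1.5. Without KO replicate 3 it was 6, with Sncg added, and all genes past the fold then numbered 22. With neo replicate 1, the other Xist-high library, as the sole comparator, an alternative chosen with the data in view, all 7 were at least 2-fold higher in WT, as were 2.23% of genes.

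The other 8 of the 13 genes were Amigo1 (38.7-fold above the highest of the 6), Nwd2 (5.15), Phox2a (3.47), Slc10a4 (2.97), Cplx1 (2.73), Slc5a7 (2.51), Xlr3a (2.08) and Gm29536 (2.03). Phox2a, Slc10a4 and Slc5a7 belong to the autonomic lists described next. Cplx1 encodes complexin 1, a regulator of synaptic vesicle fusion, and had 35 counts in WT and 3 to 11 in the others. Cplx1, Xlr3a and Gm29536 were named after their values were seen.

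**Figure D2:**
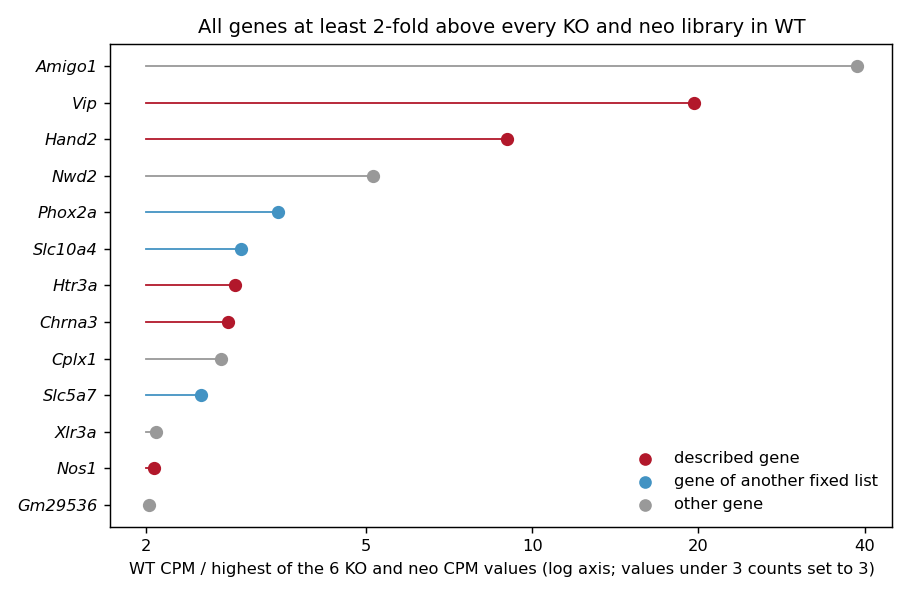
Ratio of the WT level to the highest of the 6 KO and neo libraries (log axis) for the 13 genes at which it is at least 2. Red marks 5 of the 9 described genes, blue the list genes Phox2a, Slc10a4 and Slc5a7, and grey the others, with Amigo1 at 38.7 and Vip at 19.6.

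Other genes of autonomic neurons were read from 8 lists with 51 genes at 1 CPM or more, of which 3 were at least 2-fold above every other library and 11 were above by any margin, while 3 were below all 6, against 7.83% above and 7.69% below over all genes. The 3 past the fold (Phox2a, Slc5a7 and Slc10a4) reached 1 CPM through WT alone, and their number was 1 at a fold of 3 and 0 with a mean of 1 CPM over the 6 as the filter. The median log2 ratio of WT to the mean of the 6 over the 51 genes was 0.04, and -0.01 for all genes. It was 1.78 for the 7 described genes, which were chosen by this same contrast. Phox2a, a determinant of autonomic neuron identity, had 25 counts in WT (1.15 CPM), 0, 2 and 6 counts in KO and 1, 0 and 0 in neo. Of 6 cholinergic genes at 1 CPM or more, Slc5a7, the choline transporter that supplies acetylcholine synthesis, had 41 counts in WT (1.88 CPM), 3, 14 and 2 in KO and 15, 4 and 3 in neo. Slc10a4, a synaptic vesicle protein of cholinergic neurons, had 27 counts in WT (1.24 CPM) and 1 to 8 in the others. Slc44a1, of the same list, was below all 6, at 160 CPM in WT and 167 to 182 CPM in the others. Ache stood at 9.79 CPM in WT, within 6.06 to 16.0 CPM in the others. Bche stood at 18.8 CPM in WT, within 14.0 to 25.4 CPM. Colq was above all 6 but not past the fold, with 24 counts in WT and 8 to 18 in the others. The cholinergic list summed to 193 CPM in WT and 193 to 214 CPM in the others, most of it Slc44a1. The remaining factors of the autonomic list did not stand apart: Sox11 and Insm1, which immature olfactory neurons also express, stood at 475 and 176 CPM in WT, within 429 to 639.5 and 143 to 205 CPM in the others.

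The widely expressed nicotinic subunit genes Chrnb2 and Chrna7 stood at 21.4 and 2.85 CPM in WT, within the range of the others, and none of 3 receptor subunit genes at 1 CPM or more was past the fold. Chrnb4, which pairs with Chrna3 in ganglia, was below 1 CPM and was named after its values were seen: it had 16 counts in WT and 0 to 7 in the others. None of 5 noradrenergic and chromaffin genes, 7 GDNF-family genes, 7 neuropeptide genes, 7 nitric oxide genes or 8 neurofilament and cytoskeletal genes was past the fold. Th, the rate-limiting enzyme of noradrenaline synthesis in sympathetic neurons, had 4 counts in WT and 1 to 4 in the others. Dbh, a later enzyme of the same pathway, had 7 counts in WT and 0 or 1 in the others. Ddc, of the same list, had 25 counts in WT and 9 to 66 in the others. Th, Dbh and Ddc were named after their values were seen. Vipr1, a receptor for VIP, stood at 15.7 CPM in WT within 6.72 to 20.02 CPM in the others. In the neurofilament list Nefm, whose gene lies against Nefl on the other strand, stood at 2.53 CPM in WT and 0.359 to 1.60 CPM in the others, and was also named after its values were seen.

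Lists for 12 other cell types the dissection could hold had 82 genes at 1 CPM or more. None was 2-fold above or below the 6 others, 2 were above all 6 and 16 below all 6, where all genes had 7.83% above and 7.69% below. Endothelial genes were below all 6 for 5 of 6 genes, with a sum of 122 CPM in WT and 134 to 175 CPM in the others and a median log2 ratio of -0.32. Smooth muscle and pericyte genes were below all 6 for 3 of 8 genes, with a sum of 1722 CPM in WT and 1915 to 2985 CPM in the others. Trigeminal sensory neuron genes, whose fibres also run in this tissue, summed to 23.9 CPM in WT and 26.2 to 29.5 CPM in the others, with a median log2 ratio of -0.51 over 7 genes. Mrgprd had 0 counts in all 7 libraries, and Trpv1 and Scn10a had at most 3 and 4 counts in any. Schwann cell and satellite glia genes summed to 475 CPM in WT, 493 to 1039 CPM in KO and 511 to 519 CPM in neo. KO replicate 3 had the highest sum of that list, and Vip in that library was 0.166 CPM. Without that library the described genes past the fold numbered 6, as given above. Mature olfactory neuron genes summed to 3002 CPM in WT and 2646 to 3505 CPM in the others, and nasal gland genes to 6430 CPM in WT and 5051 to 10067 CPM in the others. The part of tissue composition in the WT levels was not tested.

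**Figure D3:**
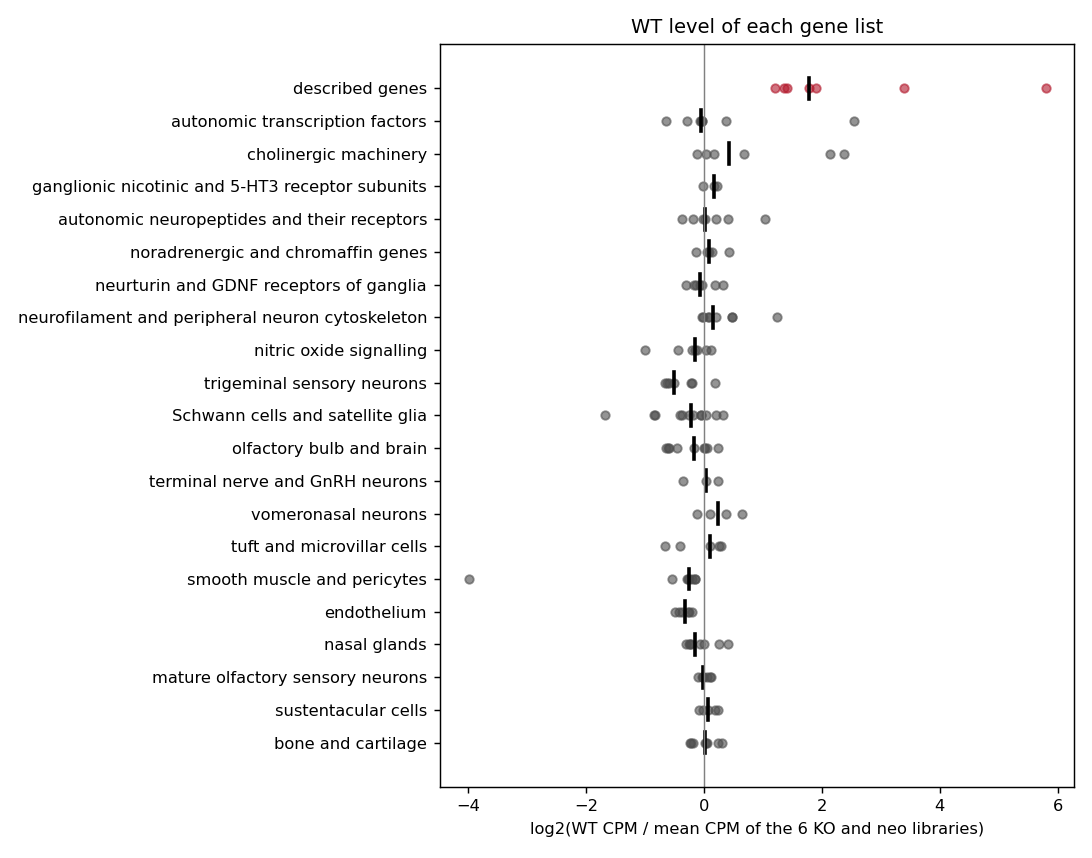
Log2 ratio of WT CPM to the mean CPM of the 6 KO and neo libraries for every gene at 1 CPM or more, by gene list. Points are genes and vertical bars are list medians. The described genes, in red, have a median of 1.78 and were chosen by this contrast. The medians of the other lists lie between -0.51 and 0.43.

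**Figure D4:**
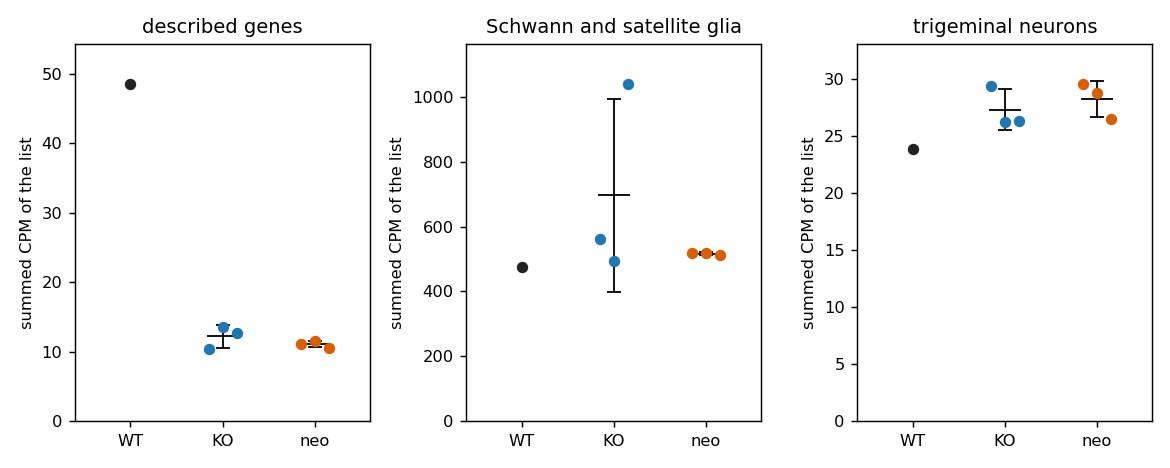
Summed CPM of the 9 described genes, of 12 Schwann and satellite glia genes and of 15 trigeminal genes by library (linear axes from 0). Points are libraries and bars the mean ± SD (n = 3). WT is highest for the described genes at 48.5 CPM, KO replicate 3 for glial genes at 1039 CPM, and WT is lowest for trigeminal genes at 23.9 CPM.

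The genes whose profile over the 7 libraries was closest to the median profile of Vip, Hand2, Chrna3, Htr3a and Nos1 were found among 14925 genes by the root mean square difference of centred log2 CPM. Nwd2 was the nearest (0.31), with 24 counts in WT, 0, 4 and 2 in KO and 0 in every neo library. Slc10a4 followed (0.43), then Fxyd7 (0.44), Nrsn1 (0.45), Nuggc (0.46), Slc7a14 (0.47), Phox2a (0.50), Adam1a (0.50), Lix1 (0.51) and Olfr789 (0.52). On the same measure Tlx2 was at 0.15, Slc18a3 at 0.16, Htr3a at 0.26, Chrna3 at 0.37, Nos1 at 0.40 and Sncg at 0.43. Values under 3 counts were set to 3 counts. This covers every KO and neo value of Tlx2 and Slc18a3, and most of those of Nwd2 and Phox2a. The distances of these genes therefore cannot show a shared pattern among the KO and neo libraries. Htr3a, Chrna3 and Nos1, like Vip and Hand2, are part of the median profile, so their distances are not independent of it. Hand2 (0.57), Nefl (0.59) and Vip (1.68) were farther from the profile than the tenth gene. Fxyd7, a regulator of the sodium pump in neurons, stood at 1.06 CPM in WT and 0.298 to 0.731 CPM in the others. Adam1a, Lix1 and Olfr789 were only 1.24, 1.39 and 1.35-fold above the highest of the 6.

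Neo was compared with KO to ask whether these genes differ between the cassette allele and the plain knockout, a contrast that was not used to choose them. All neo libraries differ from all KO libraries in the code and date-like number of their names. The allele and whatever these stand for therefore cannot be told apart. Of the 9 genes, 5 passed the count filter in these 6 libraries, and Vip, Hand2, Tlx2 and Slc18a3 did not. None of the 5 passed at an adjusted p of 0.05 (edgeR quasi-likelihood test, Benjamini-Hochberg over 17638 genes), nor by DESeq2 or limma on TPM, while 0.017% of all genes passed in edgeR. At an unadjusted p under 0.05 there was 1 of the 5, Nefl, against 9.32% of all genes.

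Mean Nefl levels were 5.31 ± 1.22 CPM for KO and 3.08 ± 0.305 CPM for neo (SD over 3 libraries). The log2 difference was -0.78 (SE 0.23), with an edgeR adjusted p = 0.471, and all 3 neo libraries lay below all KO libraries. The adjusted p ran from 0.260 to 0.902 over the alternatives. Mean Htr3a levels were 1.49 ± 0.0871 CPM for KO and 2.10 ± 0.0225 CPM for neo. Its log2 difference was 0.50 (SE 0.24), with an edgeR adjusted p = 0.554, and all 3 neo libraries lay above all KO libraries. The adjusted p ran from 0.465 to 0.905 over the alternatives. Groups did not overlap for these 2 of the 9 genes, as for 15.6% of the genes at 1 CPM or more.

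Chrna3 (-0.18, SE 0.40), Nos1 (0.14, SE 0.25) and Sncg (0.11, SE 0.32) differed by less than their standard errors (adjusted p = 0.925, 0.909 and 0.944, edgeR). With each library left out, Chrna3 ran from -0.49 (SE 0.45, without neo replicate 3) to -0.03 (without neo replicate 1), and Nos1 from 0.0054 (without neo replicate 2) to 0.31 (SE 0.26, without neo replicate 3), with no adjusted p under 0.826 and 0.921 (edgeR). The authors' deposited table, which gives KO over neo, listed Nefl at 0.79 (adjusted p = 0.326) and Htr3a at -0.49 (adjusted p = 0.917). For Vip the authors' deposited table listed -1.79 (SE 2.05, adjusted p = 0.999). The authors' deposited table also gave a p-value for Hand2, which had 0 counts in every KO and neo library, and no source used here says whether WT entered that fit. Of the 12 Vip counts in neo, 11 came from neo replicate 3. In the 8 autonomic lists no gene passed in this contrast. The lowest adjusted p per list ran from 0.476 for neuropeptides and their receptors to 0.913 for nitric oxide signalling (edgeR).

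**Figure D5:**
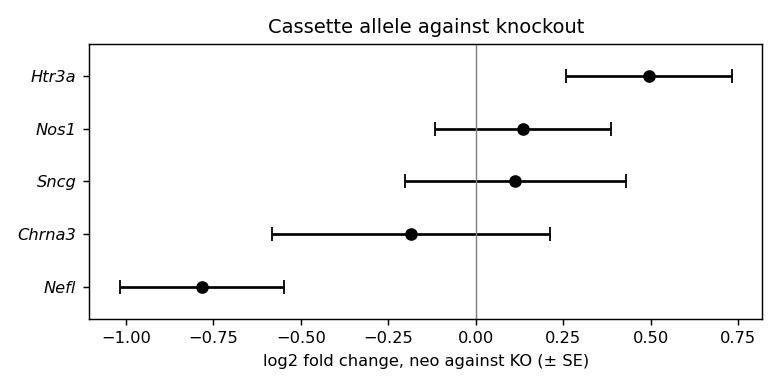
Log2 fold change of neo against KO for the 5 genes that passed the count filter, with the standard error from edgeR (3 libraries against 3). Nefl lies lowest at -0.78 and Htr3a highest at 0.50, and none passed the threshold.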

How the data were processed

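RNA of olfactory epithelium from mice at postnatal day 7 was compared in 1 WT, 3 KO and 3 neo libraries, grouped by the sample titles. Per the submitters' processing notes, the authors used Trimmomatic 0.35, STAR 2.5.1b and RSEM on GRCm38, and DESeq2 1.18.1. The authors deposited whole-number gene counts, stranded per the name of the table. Its 4 summary rows (unmapped, multimapping, no feature, ambiguous) were left out, with 14.5 to 19.6% of reads multimapping and 14.2 to 17.4% in no feature. The deposited TPM values per gene and transcript are RSEM estimates per the file headers. The authors' deposited comparison of KO with neo gives a log2 fold change, its standard error (read as a score) and p-values. FPKM tables were not used here, and some list genes are not reported here by name. Every pair of libraries differed by more than sampling noise (chi-square over its degrees of freedom at least 8.96). Separate animals are not stated for the KO and neo libraries, so p-values reflect only how these samples vary, possibly for technical reasons.

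Neo and KO were compared with edgeR 4.0.16 (R 4.3.3) on the 6 libraries, with TMM, filterByExpr (minimum count 10, total 15), a robust quasi-likelihood fit and two-sided Benjamini-Hochberg adjustment. WT levels were described by their ratio to the highest of the 6 others, with values under 3 counts set to 3 counts. Intervals of pooled ratios are exact at 95%. The edgeR fit and the fold rule were tested on simulated data. For the fold rule the simulated libraries differed by sampling noise only, less than the real ones. That check therefore does not show how often 1 real library stands apart. Gene coordinates are from GENCODE vM21, in which 45737 gene identifiers matched, all with the coordinates of the files. Named genes were the 9, list genes past the fold (up to 4 per list, otherwise up to 2 with the highest WT level), the 10 nearest profiles and the checks Amigo1, Xist and Ddx3y. Chat, Slc44a1, Ache, Bche, Colq, Vipr1, Trpv1, Scn10a, Mrgprd and Des lie outside that rule and were named after their values were seen. The members and lists were chosen with earlier results of these data known. Alternatives were other scalings, filters, folds and comparators, DESeq2 1.42.0, limma 3.58.1 on TPM (pseudocounts 0.1 and 1), all 7 libraries in 1 fit, a replicate block and leaving out each library.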

Additional observations from a re-analysis of the deposited data

How the results depend on the processing

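Counts are limited by depth: in the smallest library 3 counts equal 0.202 CPM before TMM, so Tlx2 and Slc18a3 could not be measured below that level. The number of the 9 genes past the fold in WT was 5 to 6 when each KO or neo library was left out, 2 at a fold of 3 and 2 (Htr3a and Nos1) with a mean of 1 CPM over the 6 as the filter, which by construction removes genes near 0 there. It was 7 with no filter, when Tlx2 and Slc18a3 joined, and 5 on gene TPM, where Sncg replaced Nos1. Over all genes, 13 were past the fold, and 85 on TPM, 31 at a fold of 1.5, 5 at a fold of 3, 2 with the mean filter, 28 with no filter, 25 with a filter of 0.5 CPM (added after the data were seen), 29 against KO alone, 56 against neo alone, 390 against neo replicate 1 alone (added after the data were seen) and 13 to 22 leaving out each library (22 without KO replicate 3).

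In neo against KO, none of the 9 genes passed in any of the 16 alternatives, which tested 2 to 9 of them. The number of all genes passing was 3, and 40 with no count filter, 1 with 50 counts in 3 libraries, 98 with DESeq2, 1 with limma on TPM at either pseudocount and the mean TPM filter, 0 with limma and no filter (1623 at an unadjusted p under 0.05), and 1 to 17 leaving out each library (17 without neo replicate 1; leaving out KO replicate 2 or 3, or the third of neo, gave 1). Chrna3 changed sign with limma on unfiltered TPM (0.14), and Sncg without KO replicate 1 (-0.00299) or KO replicate 2 (-0.0418), with a range of -0.0418 to 0.44 over the libraries left out. With the replicate number as a block 1 gene passed and none of the 9, with Nefl at -0.76. Same-numbered libraries correlated at -0.10, -0.05 and 0.19 in their deviations from the group means. Among the KO libraries only replicate 3 had the same-numbered neo library as its best match. The numbers are therefore not taken to pair the libraries.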

Other observations

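Below the 6 other libraries by at least 2-fold in WT were 4 genes, or 0.0228% of those at 1 CPM or more. Gpr61, a receptor gene near Amigo1 on chromosome 3, had 1 count in WT and 374 to 679 in the others. Slc22a21, a carnitine transporter gene, had 20 counts in WT and 36 to 60 in the others. The noncoding genes A930029G22Rik and Gm43054 had 9 and 4 counts in WT, against 16 to 32 and 9 to 70. None of these is in the autonomic lists, and they were named after their values were seen.

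Des, the intermediate filament gene of muscle, stood at 43.4 CPM in neo replicate 1 and at 0.321 to 1.38 CPM in the other 6 libraries. That library was not apart in the 9 described genes, whose sum there was 11.2 CPM.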
